A study of Mus musculus with 4 samples.

Results

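The genes described here are 5 adult globin chains (Hba-a1, Hbb-b1, Hbb-b2, Hbb-bs and Hbb-bt), 3 genes of red cell precursors (Alas2, Slc4a1 and Epb42) and the haem-degrading enzyme Hmox1, read in the mouse abdominal aorta. They were taken by name, as every probe that is not a control and carries one of these gene names. Under that spelling 9 of the 56605 probes were found. Another 2 probes carried Epb4.2, the older symbol of Epb42, which makes 11, and no probe carried the name Hbb-bs. Of the 22497 genes that passed the filter on dim probes, 7 were of this group. The sequences and values are given by role: alpha globins, beta globins, haem synthesis, the red cell membrane, and haem breakdown.

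The samples were abdominal aortas of male mice aged 12 weeks, collected 4 weeks after CaPO4, which is applied to a vessel to injure it. Arrays K4 and K5 were labelled SR-A1-/-, and arrays W2 and W3 were labelled wild type. Each of the 4 one-colour arrays measured the RNA of 1 sample. All 4 aortas had received CaPO4, and no aorta without it was analysed here. The strain and the allele are not given in the labels. Nor do they tell whether the RNA of different arrays came from different animals, so a p-value here covers no more than the spread among these 4 samples. SR-A1 is the product of Msr1, a receptor with which macrophages take up modified lipoproteins and other debris.

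Levels are log2 values of the processed signal minus the array's own 75th percentile, so that 0 is the level of that percentile. Differences are the arrays labelled SR-A1-/- minus those labelled wild type, ± the limma standard error (2 arrays in each group). That percentile stood at 245 on K4 and 133 on K5, against 132 on W2 and 220 on W3, so each group held 1 array of higher and 1 of lower signal. Msr1 went against the labels: its probe at base 3231 read -1.26 on K4 and -2.09 on K5, against -5.30 on W2 and -2.10 on W3, and W2 was the only array on which it was not well above background. A probe outside the deleted part checks nothing, and every direction given here rests on the labels. The smooth muscle actin Acta2 read 8.57 and 8.92 on the arrays labelled SR-A1-/-, against 9.47 and 8.88 on those labelled wild type. White adipocyte markers set K5 apart: their median was 5.36 on K4 and -2.40 on K5, against 4.50 on W2 and 5.24 on W3.

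Haemoglobin of adult mice is built from alpha chains, encoded by the near-identical genes Hba-a1 and Hba-a2, and beta chains, encoded at a locus whose gene names depend on the haplotype: Hbb-b1 (major) and Hbb-b2 (minor) in the diffuse haplotype, Hbb-bs and Hbb-bt in the single haplotype. Red cell precursors and young red cells (reticulocytes) hold these mRNAs, and a vessel can carry them in blood that stays in its lumen or has entered its wall. Haem oxygenase 1, encoded by Hmox1, breaks haem down to biliverdin, iron and carbon monoxide. Macrophages that take up red cells or haemoglobin are known to induce it.

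The probe sequences decide which globin each value can stand for, so those within the coding part or the start of the transcript are shown. Both Hba-a1 probes list the transcripts of Hba-a1 and Hba-a2, and the Hba-a1 probe at base 499 shares a run of 59 of its 60 bases with the Hba-a2 probe. The Hbb-b2 probe also lists the Hbb-b1 transcript. The Hbb-b1 probe also lists the Hbb-bs transcript, and it matched the start of the Hbb-bs transcript with 0 mismatches over 46 bases, so its values cannot be told apart from those of Hbb-bs. Against the start of the Hbb-bt transcript it had 7 mismatches over 45 bases. The Hbb-bt probe lists 1 transcript, its own.
Hba-a1 probe at base 161: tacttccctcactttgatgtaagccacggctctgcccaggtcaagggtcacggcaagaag
Hbb-b2 probe at base 215: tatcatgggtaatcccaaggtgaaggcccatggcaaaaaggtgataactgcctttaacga
Hbb-b1 probe, 30 bases: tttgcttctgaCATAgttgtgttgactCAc
Hbb-bt transcript, the same 30 bases: tttgcttctgaTTCTgttgtgttgactTGc
Capitals in the last pair mark the 6 bases that differ between the Hbb-b1 probe and the Hbb-bt transcript in this stretch.

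On mm9, the build of the array files, the Hba-a1 probes lie within exons on the forward strand at chr11:32183955-32184014 (base 161 of transcript NM_008218) and chr11:32184427-32184486 (base 499). The Hbb-b1 probe lies at chr7:110976379-110976438 and the Hbb-bt probe at chr7:110961105-110961164, both on the reverse strand. The files give no position for the Hbb-b2 probe. The probe of Alas2 lies at chrX:147004993-147005052, that of Slc4a1 at chr11:102210256-102210315, and that of Hmox1 at chr8:77624406-77624466.

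Promoters are shown because erythroid genes are known to share short promoter elements. RefSeq's table on GRCm38.p6 held 5 of the 9 genes. The 120 bases before the start of transcription are given 5′ to 3′ on the gene's own strand for the 4 that held an element searched in that window, with the elements in capitals.
Hba-a1, chr11:32283552-32283671, forward strand: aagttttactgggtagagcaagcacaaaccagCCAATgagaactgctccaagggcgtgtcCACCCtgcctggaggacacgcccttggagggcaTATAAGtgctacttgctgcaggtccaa
Hbb-bs, chr7:103827929-103828048, reverse strand: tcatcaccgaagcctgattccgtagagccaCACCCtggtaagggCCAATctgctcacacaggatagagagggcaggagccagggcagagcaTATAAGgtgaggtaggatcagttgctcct
Hbb-bt, chr7:103813924-103814043, reverse strand: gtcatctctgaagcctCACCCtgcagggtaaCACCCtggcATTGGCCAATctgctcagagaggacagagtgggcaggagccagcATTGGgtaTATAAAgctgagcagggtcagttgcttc
Alas2, chrX:150547297-150547416, forward strand: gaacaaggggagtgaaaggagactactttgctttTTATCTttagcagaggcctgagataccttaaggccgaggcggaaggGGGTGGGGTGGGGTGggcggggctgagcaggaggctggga
Both strands were searched for each element. The element of factors of the Klf family was spelled CACCC, and the box bound by nuclear factor Y was spelled CCAAT. The TATA element was taken as TATAAA or in its other spelling TATAAG. The element of GATA factors was the core GATA with A or T before it and A or G after it. Matches could overlap, and none printed in capitals overlaps one of another kind. CACCC was found in 4 of the 5 windows searched, and in 31.7% of the 32851 promoters of the table at the same length. CCAAT and a TATA element were found in 3 of the 5, the globin windows, against 21.3% and 9% of all promoters. A GATA element was found in 1 of the 5, the Alas2 window, against 12.8% of all promoters. The Epb42 window held none of the 4 elements at this length. Over 250 bases, a GATA element was found in 4 of the 5, all but Hbb-bt, against 26.5% of all promoters. At that length a TATA element was found in 5 of the 5 against 17%, CACCC in 4 against 52% and CCAAT in 3 against 33.8%. These matches describe the letters only.

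Of the 7 tested genes, 4 were higher on both arrays labelled SR-A1-/- than on both labelled wild type: Hbb-b1, Hbb-b2, Hbb-bt and Hmox1. Over all genes tested, 16.1% were higher in this way and 13.7% were lower, and none of the 7 was lower. At an unadjusted p under 0.05, limma called 3 of the 7, Hbb-b1, Hbb-b2 and Hmox1, all higher, where 3.84% of all genes were called higher, 2.45% lower and 6.29% in either direction. With array signal level as a block (K4 and W3 higher, K5 and W2 lower), the same threshold called 6 of the 7 higher, all but Slc4a1, where 6.33% of all genes were called higher, 6.18% lower and 12.5% in either direction. The genes added were Alas2, Hba-a1 and Hbb-bt, and no gene passed an adjusted p of 0.05 with the block. Unlike a replicate number, that block was read from the arrays' signal and not from the labels. It follows the percentile that was also taken off every value, so the block and the scaling are not independent. For Alas2, Hba-a1 and Hbb-bt, the unscaled log2 signals within a group lay closer together than the scaled ones. The block thus took out spread that the scaling had put in, and these added calls are no separate evidence. The block also adds a term to a fit of 4 arrays, which leaves less data to estimate the spread. Without the block, limma called 0 of the 7 at an adjusted p of 0.05, as it did of all genes (0%). The lowest adjusted p of any gene in that fit was 0.0539. An exact permutation test of 2 arrays against 2 cannot go below a two-sided p of 0.333. In bulk tissue, fewer cells of a type and less RNA per cell cannot be told apart.

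**Figure D1:**
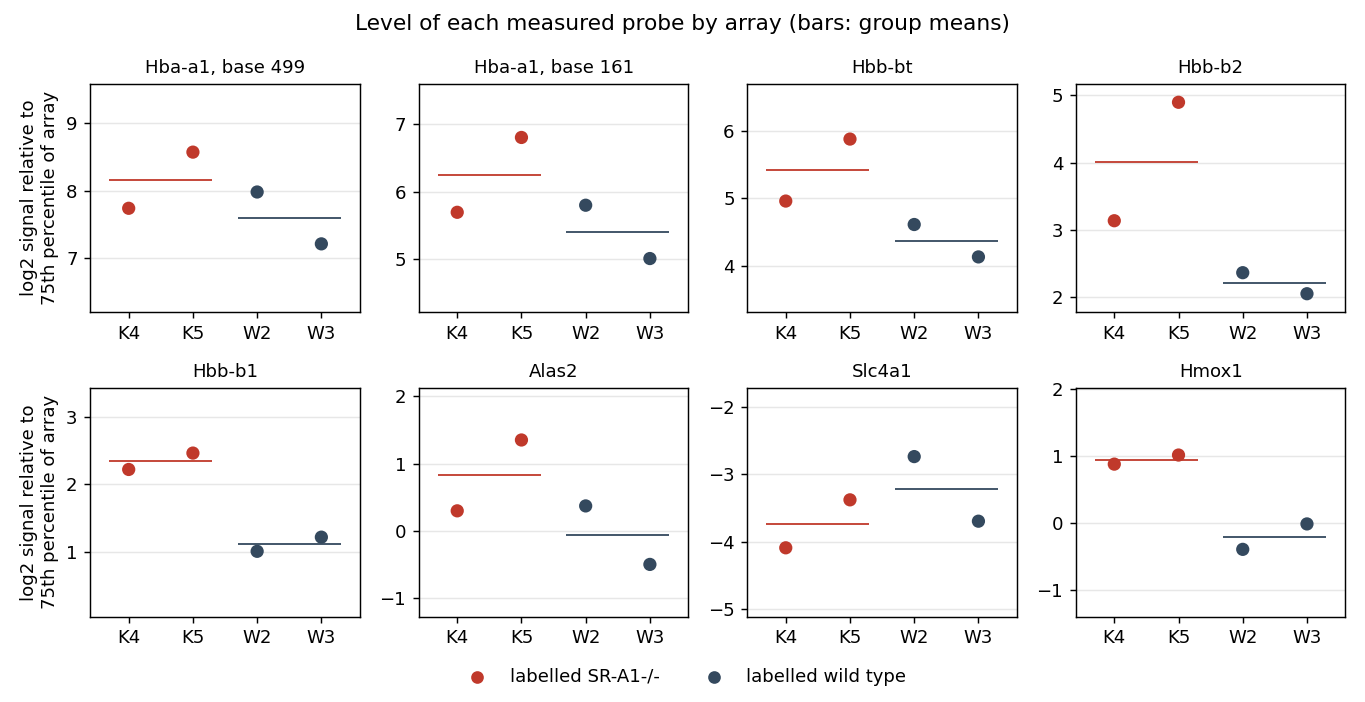
Log2 level relative to the array's 75th percentile (vertical axis) of the measured probes on each array, with K4 and K5 (labelled SR-A1-/-) left of W2 and W3 (labelled wild type). Points are single arrays, bars are group means, each panel spans the same range, and probes well above background on no array are not drawn. Hbb-b1, Hbb-b2, Hbb-bt and Hmox1 have groups that do not overlap, while Hba-a1, Alas2 and Slc4a1 have groups that do.

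The alpha globin Hba-a1 read 7.74 on K4 and 8.57 on K5, against 7.98 on W2 and 7.21 on W3, at base 499. The groups overlapped, since K4 lay below W2. The difference was 0.56 ± 0.45, a fold of 1.47, with an adjusted p of 0.99999 in limma. At base 161 the levels were 5.69 and 6.80 on the arrays labelled SR-A1-/-, against 5.80 and 5.004 on those labelled wild type, and the difference was 0.85 ± 0.51. Hba-a2, whose probe cannot be told apart from that of Hba-a1, read 7.64 and 8.48 against 7.88 and 7.14, a difference of 0.55 ± 0.45.

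The scaling of the arrays decided whether the alpha globin groups overlapped. Before the 75th percentile was taken off, the mean signal of Hba-a1 at base 499 was 52295 on K4 and 50511 on K5, against 33370.1 on W2 and 32568 on W3. At base 161 it was 12647 and 14808 on the arrays labelled SR-A1-/-, against 7338 and 7056 on those labelled wild type. Each of these probes, and that of Hba-a2, stood in 10 spots on every array, with an SD between spots of 0.033 to 0.070 on the log2 scale. Unscaled, the 2 arrays of a group lay close together at base 499 and the groups were apart, although the 75th percentiles within each group differed as given above. Which of the 2 scales is nearer to the amount of globin RNA was not tested. Unscaled, 11.3% of all genes were higher on both arrays labelled SR-A1-/- and 5.11% were lower, and 6 of the 7 genes were higher and 1, Slc4a1, was lower.

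**Figure D2:**
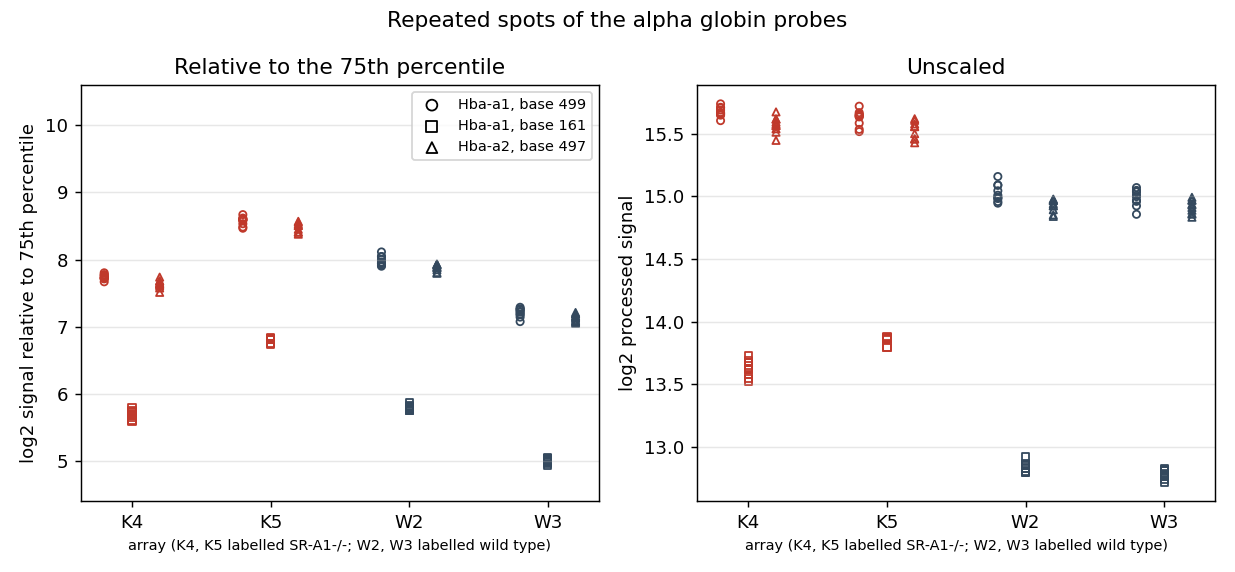
Single spots of the alpha globin probes on each array, outlier spots left out, relative to the array's 75th percentile in one panel and unscaled in the other (vertical axes, log2), with K4 and K5 (labelled SR-A1-/-) left of W2 and W3 (labelled wild type). Unscaled, all spots of K4 and K5 lie above those of W2 and W3 for each probe, and after scaling the mean of K4 lies below that of W2.

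All 3 beta globin probes were higher on both arrays labelled SR-A1-/-. Hbb-b1, which here also stands for Hbb-bs, read 2.22 and 2.46 on the arrays labelled SR-A1-/-, against 1.004 and 1.21 on those labelled wild type. K5 stood 0.24 above K4 and W3 stood 0.21 above W2, so the groups did not overlap. The difference was 1.23 ± 0.29, a fold of 2.35, with a p of 0.00823 and an adjusted p of 0.485 in limma.

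Among the 7 genes, Hbb-b2 had the largest difference between groups and also the widest spread within one. It read 3.14 on K4 and 4.897 on K5, against 2.36 on W2 and 2.05 on W3, so K5 stood 1.76 above K4. The difference was 1.81 ± 0.63, a fold of 3.50, with a p of 0.0354 and an adjusted p of 0.729 in limma. Without K5 it was 0.93.

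Hbb-bt, the globin whose probe lists no other transcript, read 4.96 on K4 and 5.88 on K5, against 4.61 on W2 and 4.13 on W3. The groups did not overlap, and K5 stood 0.92 above K4. The difference was 1.05 ± 0.43, a fold of 2.07, with a p of 0.0580 and an adjusted p of 0.814 in limma, and it was 0.59 without K5. K5 is also the array on which the white adipocyte markers were low, and the part of that in the globin values was not tested.

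Alas2, the erythroid form of the first enzyme of haem synthesis, varied after scaling in the same order of arrays as Hba-a1, with K5 highest and W3 lowest. It read 0.30 on K4 and 1.35 on K5, against 0.37 on W2 and -0.50 on W3, and the groups overlapped between K4 and W2. The difference was 0.89 ± 0.51, a fold of 1.85, with an adjusted p of 0.999 in limma. Without K5 it was 0.36 and without W3 it was 0.45, whereas it was 1.41 without K4 and 1.32 without W2. The same holds for Hba-a1 at base 499, with 0.14 without K5, 0.18 without W3, 0.98 without K4 and 0.95 without W2. Unscaled, the signal of Alas2 was 301 on K4 and 338 on K5, against 171 on W2 and 156 on W3. Those groups did not overlap, and Alas2 was highest on K5 where Hba-a1 at base 499 was highest on K4.

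The membrane genes gave little or no signal. Slc4a1, the anion exchanger known as band 3, read -4.09 and -3.38 on the arrays labelled SR-A1-/-, against -2.74 and -3.70 on those labelled wild type, with groups that overlapped. The difference was -0.52 ± 0.47 with an adjusted p of 0.99999 in limma. It was -0.039 without W2, -0.16 without K4, -0.88 without K5 and -0.999 without W3. Epb42, which encodes protein 4.2, a partner of band 3 in the membrane skeleton, was not well above background on any array at either probe (chr2:120844440-120844499 and chr2:120849386-120849445, mm9), so neither a level nor a fold is given.

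Hmox1 read 0.88 and 1.01 on the arrays labelled SR-A1-/-, against -0.39 and -0.01 on those labelled wild type. Both arrays labelled SR-A1-/- were higher, and they lay within 0.14 of each other. The difference was 1.15 ± 0.30, a fold of 2.21, with a p of 0.0126 and an adjusted p of 0.558 in limma. The other Hmox1 probe, which lists an Ensembl transcript and lies at chr8:77620085-77620144, was not well above background on any array.

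Macrophage markers were also higher, as a list, on the arrays labelled SR-A1-/-. All 11 macrophage markers were well above background on all 4 arrays. On both arrays labelled SR-A1-/-, 6 were higher and 1 was lower, against 16.1% and 13.7% of all genes. The median difference of the markers was 1.18, against -0.0057 over all genes tested. Their summed level on the log2 scale was 8.10 and 8.13 on the arrays labelled SR-A1-/-, against 7.39 and 8.42 on those labelled wild type. Cd68, a defining marker, read 3.82 and 3.51 against 0.75 and 4.28. The part of the macrophage markers in the Hmox1 value was not tested.

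Setting arrays of like signal side by side gave the same sign for each of the 7 genes. For Hbb-b1, Hbb-b2, Hbb-bt and Hmox1, whose groups did not overlap, any pairing of arrays across groups gives that sign. K4 minus W3, the arrays of higher signal, was 1.01 for Hbb-b1, 1.08 for Hbb-b2, 0.83 for Hbb-bt and 0.89 for Hmox1. K5 minus W2, the arrays of lower signal, was 1.46, 2.53, 1.27 and 1.40 for the same genes. For Hba-a1 at base 499 the values were 0.53 and 0.59, for Alas2 0.80 and 0.98, and for Slc4a1 -0.40 and -0.64. Each of these pairs is 1 array against 1, joined by signal level alone.

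**Figure D3:**
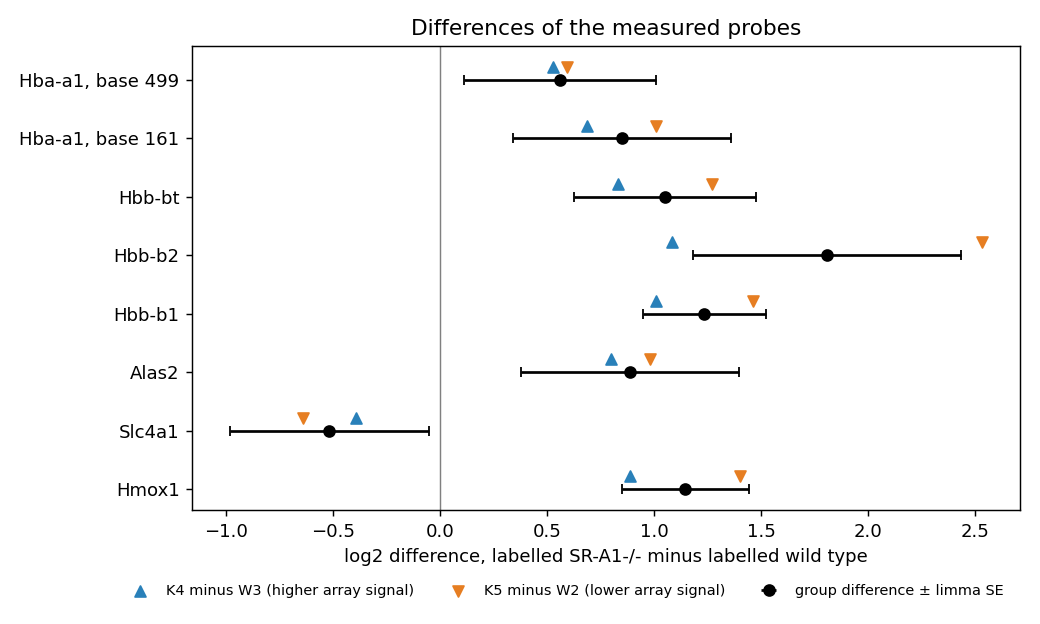
Log2 differences (horizontal axis), labelled SR-A1-/- minus labelled wild type, of the measured probes. Black points are group differences with bars of 1 limma standard error (2 arrays in each group), and triangles are the 2 pairs of arrays of like signal, K4 minus W3 and K5 minus W2. Slc4a1 alone lies below 0 among these probes, and the 2 triangles of Hbb-b2 lie farthest apart, at 1.08 and 2.53.

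The other globins did not move as one group. Of 10 on the array 5 were tested, and none passed an adjusted p of 0.05 in limma. On both arrays labelled SR-A1-/-, 1 was higher and 1 was lower, against 16.1% and 13.7% of all genes. Myoglobin (Mb), the oxygen store of striated muscle, read 2.81 and 3.02 on the arrays labelled SR-A1-/-, against 0.16 and -0.10 on those labelled wild type, a difference of 2.89 ± 0.29 with an adjusted p of 0.141. The embryonic gene Hbb-bh1 read -3.92 and -4.04 against -3.53 and -3.59. Cytoglobin (Cygb), found in fibroblast-like cells, read 7.26 and 7.95 against 7.92 and 6.49. Hba-x, Hbb-bh2, Hbb-y, Hbq1a and Hbq1b were not well above background on any array.

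Mb is a muscle gene, and the skeletal muscle markers differed among themselves. Of 8, 2 were higher and 3 were lower on both arrays labelled SR-A1-/-, against 16.1% and 13.7% of all genes. The median difference of the 8 was -1.52. That median was -0.61 without W2 and -2.26 without W3. Mb is itself one of the 8 and one of the 2, and of the other 7, 1 was higher and 3 were lower. Myh1 read 3.56 and 4.39 on the arrays labelled SR-A1-/-, against -0.66 and 1.35 on those labelled wild type, whereas Myh4 read 5.06 and 5.58 against 8.36 and 6.84. Both encode myosin heavy chains of fast fibres. The part of skeletal muscle in the Mb value was not tested.

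Regulators and structural proteins of red cells showed no common direction. Of 33 listed, 23 were tested. On both arrays labelled SR-A1-/-, 4 were higher and 5 were lower, against 16.1% and 13.7% of all genes. The median difference was -0.035, ranging from -0.16 to 0.031 with 1 array left out. Another 9 listed genes were not well above background on any array, among them the transcription factors Gata1 and Klf1, the globin chaperone Ahsp, and Rhag, Rhd, Kel and Trim10. Several of the tested members are also expressed outside the red cell line. Ank1, an ankyrin of the membrane skeleton, read -1.64 and -1.30 on the arrays labelled SR-A1-/-, against 1.12 and -0.38 on those labelled wild type, a difference of -1.84 ± 0.56 (limma adjusted p = 0.658).

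The 9 other genes of haem synthesis gave 1 higher and 1 lower, against 16.1% and 13.7% of all genes. Their median was -0.16, which was -0.50 without W2 and 0.19 without W3. Alas1, the housekeeping counterpart of Alas2, read 4.44 and 3.72 on the arrays labelled SR-A1-/-, against 3.61 and 4.88 on those labelled wild type, with groups that overlapped. Fech, the enzyme that inserts iron into haem, read 2.85 and 2.57 against 2.50 and 3.26, and its groups overlapped too.

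Genes that handle haem, haemoglobin and iron differed more often in one direction. Of 23 tested, 8 were higher and 0 were lower on both arrays labelled SR-A1-/-, with a median difference of 0.18, where 16.1% of all genes were higher in this way and 13.7% were lower. The median was -0.00026 without K4 and 0.49 without K5. Of the 23, 2 passed an unadjusted p of 0.05 and none an adjusted p of 0.05 in limma. Cd163, the macrophage receptor for haptoglobin-bound haemoglobin, read -0.45 and -1.24 on the arrays labelled SR-A1-/-, against -3.26 and -4.09 on those labelled wild type, a difference of 2.83 ± 0.45 with an adjusted p of 0.272. Cd163 is also one of the 11 macrophage markers. Cp, the ferroxidase ceruloplasmin, read 3.57 and 3.72 against 2.91 and 2.45.

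Slc40a1, the iron exporter ferroportin, read 1.04 and -0.27 on the arrays labelled SR-A1-/-, against -0.73 and -0.60 on those labelled wild type, a difference of 1.05 ± 0.50 (limma adjusted p = 0.899). Slc11a1, an iron transporter of macrophages, read 2.47 and 2.42 against 0.92 and 2.04. The transporters Slc11a2, Slc48a1 and Flvcr1 had groups that overlapped, with differences of 0.037, -0.014 and -0.063, as had Flvcr2, with 0.18. The transporter Abcg2 read 2.87 and 2.69 against 2.40 and 2.12, with groups that did not overlap. Of the biliverdin reductase genes, Blvrb read 2.58 and 2.24 against 1.97 and 2.22, and Blvra read 0.86 and 0.20 against 0.17 and 0.74. The constitutive haem oxygenase Hmox2 read 2.62 and 2.17 against 1.75 and 2.32. The groups overlapped for Blvra and Hmox2 and did not for Slc40a1, Slc11a1 and Blvrb. Hp, the plasma haemoglobin binder haptoglobin, read 4.86 and 1.16 against 3.30 and 5.28, lowest on K5.

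Hmox1 is also a target of the stress factor Nfe2l2, and other genes of that response were set beside it. Of 15 tested, 2 were higher and 1 was lower on both arrays labelled SR-A1-/-, against 16.1% and 13.7% of all genes. The median difference of the 15 was -0.064 (-0.28 without W2 and 0.22 without W3), and 0 passed an unadjusted p of 0.05 in limma. The 2 higher were Gclc, at 2.64 and 2.52 against 2.19 and 2.46, and Osgin1, at 0.34 and 0.64 against 0.27 and 0.27. Gclm was the lower one, at 1.945 and 1.928 against 1.948 and 2.056. Nqo1, a standard target of Nfe2l2, read -0.63 and -0.90 on the arrays labelled SR-A1-/-, against -0.75 and -0.70 on those labelled wild type. Srxn1 read 2.80 and 2.49 against 2.31 and 3.90, and Bach1, the repressor that haem releases from Hmox1, read 1.34 and 1.20 against 0.64 and 1.26.

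Markers of other blood cells were set beside the globins. Of 8 platelet markers tested 1 was higher and 1 was lower on both arrays labelled SR-A1-/-, against 16.1% and 13.7% of all genes. Their median was -0.19, ranging from -0.39 to 0.10 with 1 array left out. Pf4 read 4.77 and 3.92 on the arrays labelled SR-A1-/-, against 2.53 and 3.16 on those labelled wild type, and Gp9 read -3.03 and -3.58 against -2.48 and -2.18. Of 6 neutrophil markers tested, 1 was higher and 0 were lower, with a median of -0.13, ranging from -0.52 to 0.59 with 1 array left out. The summed level was 4.84 and 4.05 against 2.81 and 3.57 for platelet markers, and 6.83 and 7.58 against 7.59 and 7.09 for neutrophil markers. The summed platelet level was higher on both arrays labelled SR-A1-/-, but it is mostly Pf4 and so describes that 1 gene. Ppbp, the next platelet marker in level, read -1.39 and -1.19 against -1.67 and 0.68, with groups that overlapped. The summed level of neutrophil markers overlapped too, but it is mostly Csf3r, which read 6.82 and 7.58 against 7.58 and 7.04. S100a9 read -1.33 and -2.50 against -2.83 and 1.63, with groups that overlapped. The part of blood left in the tissue in the globin values was not tested.

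**Figure D4:**
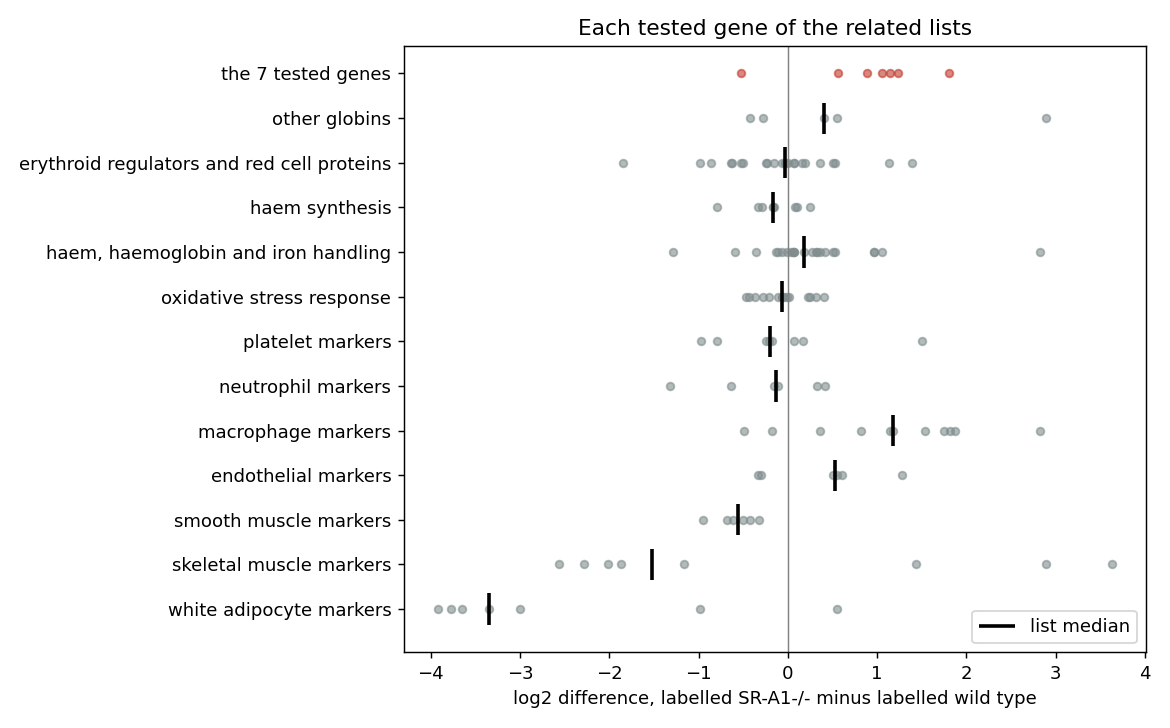
Log2 differences (horizontal axis), labelled SR-A1-/- minus labelled wild type, of each tested gene in the related lists, one list to a line. Points are genes from 2 arrays in each group, vertical bars are list medians, and the 7 genes described here are on the top line. The macrophage median lies at 1.18, the erythroid one at -0.035 and that of haem and iron handling at 0.18.

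The genes whose levels most resembled Hba-a1 over the 4 arrays were ranked by the root mean square distance of their centred log2 levels among 13123 genes, and are given as a description. Hba-a2 came first at 0.011, then Podxl2 at 0.028, Pcdhb15 at 0.029 and Igf2bp3 at 0.035. Podxl2 read 0.43 and 1.22 on the arrays labelled SR-A1-/-, against 0.60 and -0.12 on those labelled wild type. Nearest to Hmox1 were Hopx at 0.059, C1qb at 0.060, Dclk1 at 0.072 and Inpp5d at 0.081. C1qb, a complement chain made by macrophages, read 2.25 and 2.32 against 0.88 and 1.20.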

How the data were processed

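The processed signal, per the file headers, is an intensity from Agilent Feature Extraction 12.0.3.1 (10.7 per the submitters' processing notes, which also name limma), background-subtracted and detrended, not scaled between arrays. Mean and background signals, used for normexp, are, per the file headers, raw intensity values. The authors' deposited values, used as an alternative, are log2. All 4 arrays shared 1 slide and scan time. The log2 signal minus each array's 75th percentile was used. Outlier spots (74 to 102 an array) were dropped, repeated spots averaged, and probes well above background on at least 2 arrays kept (57.6% to 62.6% of probes were above it on an array). The brightest probe stood for each name. Groups were compared with limma 3.58.1 (R 4.3.3, package data.table in version 1.17.8; lmFit, eBayes, two-sided) with Benjamini-Hochberg adjustment over 22497 genes, and the procedure was tested on simulated data. Plots used matplotlib 3.10.9 in Python 3.11.15. The genes and lists were chosen with earlier results of these data known. Named genes were the 9, Msr1, up to 4 of each list with the smallest p, genes not above background, and the 4 most like Hba-a1 and Hmox1. Acta2, Cd68, Alas1, Fech, Blvrb, Hmox2, Hp, Slc11a2, Slc48a1, Flvcr1, Nqo1, Srxn1, Tagln, Des and Kdr were added for their roles after their values were seen. Abcg2, Flvcr2, Blvra, Gclc, Osgin1, Gclm, Mertk and Csf3r were also added after their values were seen. The number of arrays limits the precision. Some genes of the lists are not reported here by name.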

Additional observations from a re-analysis of the deposited data

How the results depend on the processing

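All 7 genes kept their direction under each of the 17 settings run for each gene. With all 4 arrays they stayed above an adjusted p of 0.05 in limma, the lowest being 0.29. A looser or stricter filter on dim probes, separate probe fits and kept outlier spots left each difference unchanged. So did the intensity trend and the block on array signal level. For Hbb-b1, Hbb-b2, Hbb-bt and Hmox1, whose groups did not overlap, leaving out 1 array could not reverse the direction. With all 4 arrays, the difference ranged from 0.51 to 0.70 for Hba-a1, 1.10 to 1.31 for Hbb-b1, 1.73 to 1.89 for Hbb-b2, 0.998 to 1.14 for Hbb-bt, 0.74 to 0.97 for Alas2, 0.90 to 1.23 for Hmox1 and -0.60 to -0.19 for Slc4a1. With 1 array left out, the range was 0.14 to 0.98 for Hba-a1, 1.11 to 1.36 for Hbb-b1, 0.93 to 2.69 for Hbb-b2, 0.59 to 1.51 for Hbb-bt, 0.36 to 1.41 for Alas2, 0.96 to 1.33 for Hmox1 and -0.999 to -0.039 for Slc4a1. The number of all genes past an adjusted p of 0.05, 0 as reported, was 8 with quantile normalisation, 7 with median scaling, 8 with cyclic loess, 21 with normexp at an offset of 50, 8 with no filter on dim probes, 3 with each probe fitted separately, 5 with an intensity trend, 8 with the deposited values and 1416 at an unadjusted p. It was 67 with no scaling between arrays, a setting chosen after seeing the data. With 1 array left out it ranged from 0 without K4 or K5 to 260 without W2 and 371 without W3, where the lone array is assumed to vary like the other group. The causes were not tested. With array signal level as a block, the differences were the same, the unadjusted calls were 2814 of all genes against 1416 without it, and 0 genes passed an adjusted p of 0.05. That block follows the same percentile that was taken off every value, so its calls are no separate check. No paired analysis was possible because the labels join no array of one group to one of the other: they number the arrays 2 and 3 in one group and 4 and 5 in the other. Signal low against background limits Slc4a1, Epb42 and the second Hmox1 probe.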

Other observations

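Endothelial markers, not described above, were higher on both arrays labelled SR-A1-/- for 4 of 6 genes and lower for 1, with a median difference of 0.53 and none past an unadjusted p of 0.05 in limma. Over all genes tested, 16.1% were higher in this way and 13.7% were lower. The median was 0.21 without W3 and 0.84 without W2. Vwf, the clotting protein von Willebrand factor, read 5.10 and 5.03 on the arrays labelled SR-A1-/-, against 4.67 and 2.90 on those labelled wild type. Kdr, the main receptor of vascular endothelial growth factor, read 2.34 and 2.17 against 2.64 and 2.48. Of 6 smooth muscle markers, 3 (Cnn1, Smtn and Myh11) were lower on both arrays labelled SR-A1-/-, the groups of Acta2, Tagln and Des overlapped, and none passed an unadjusted p of 0.05 in limma. Cnn1 read 7.24 and 7.12 against 7.83 and 7.76.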
